A study of Mus musculus with 24 samples.

Results

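The transcripts described are those of the cytosolic and endosomal sensors of nucleic acids in mouse liver, together with the adaptors they signal through. The 10 genes are Ifih1 (MDA5), Ddx58 (RIG-I), Dhx58 (LGP2), Tlr3, Zbp1, Eif2ak2 (PKR), Adar, Mavs, Aim2 and Tmem173 (STING), chosen by name and matched to array probes by gene symbol, older symbols included. Probes were found for 9 of the 10, 12 probes in all, of the 17893 named genes on the array, and Mavs was found under the older symbol D430028G21Rik. Tmem173 was not analysed here. Background ended at an intensity of 16.3, and a gene was tested if 1 of its probes exceeded this on at least 4 of the 24 arrays. Tested were 6 of the genes (Ddx58, Dhx58, Eif2ak2, Adar, Mavs and Zbp1), each above background on all 24 arrays, among 10733 genes tested in all. Ifih1, Tlr3 and Aim2 lay at background.

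Liver RNA of control mice and of mice labelled as DNMT1 knockouts, which lack the maintenance DNA methyltransferase, was hybridised to an Illumina mouse expression array at weeks 4, 8 and 20. Each combination of genotype and week has 4 arrays. The labels do not say which promoter drives the deletion, which liver cells lose the gene, whether week means age or time since deletion, or what strain and sex the mice were. Whether a group's 4 arrays are 4 animals is not stated either, and the p-values then cover only the spread between these arrays, which may be technical. The comparison asks whether the machinery that detects viral nucleic acid changes after loss of DNA methylation.

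RIG-I and MDA5 bind double-stranded RNA in the cytosol and signal through MAVS on the mitochondrial surface to the kinase TBK1 and the transcription factors IRF3 and IRF7, which switch on interferon genes. LGP2 is a relative of both that modulates them, TLR3 reads double-stranded RNA in endosomes, PKR halts translation when it binds such RNA, and ADAR edits adenosine to inosine in RNA duplexes so that self RNA is less readily sensed. Many sensor genes are themselves induced by interferon. Transcripts of endogenous retroviruses, normally silenced by DNA methylation, are among the ligands proposed for these sensors, an idea called viral mimicry.

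The mice are labelled as knockouts of the enzyme that maintains DNA methylation, and many sensor genes can respond to interferon. The promoters of 4 of the listed genes are shown, 3 with an interferon-response-type motif and that of Mavs, which holds none. Of the 3, Ifih1 lay at background, and Mavs moved opposite to Eif2ak2 and Ddx58. Adar, called higher in the knockout at weeks 4 and 8, has 3 windows without an exact match to the motif, not printed here. One of them holds a near match, given below. Whether the motif goes with the direction of change was not tested. Each is the RefSeq window (GRCm38.p6) of 300 bases, from 250 before to 50 after the start of the gene, 5′ to 3′ on the gene's strand. Capitals mark a match on either strand to GAAA, any 2 bases and GAAA again, the core of the interferon-stimulated response element. The windows are chr17:78882523-78882822 (minus strand) for Eif2ak2, chr4:40239776-40240075 (minus) for Ddx58, chr2:62646206-62646505 (minus) for Ifih1 and chr2:131233813-131234112 (plus) for Mavs.
Eif2ak2: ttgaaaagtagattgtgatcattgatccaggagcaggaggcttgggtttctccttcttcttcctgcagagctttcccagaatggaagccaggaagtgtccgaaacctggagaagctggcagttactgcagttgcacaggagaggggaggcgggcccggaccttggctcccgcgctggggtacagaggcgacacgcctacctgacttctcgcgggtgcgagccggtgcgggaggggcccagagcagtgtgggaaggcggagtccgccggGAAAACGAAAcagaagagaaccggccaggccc
Ddx58: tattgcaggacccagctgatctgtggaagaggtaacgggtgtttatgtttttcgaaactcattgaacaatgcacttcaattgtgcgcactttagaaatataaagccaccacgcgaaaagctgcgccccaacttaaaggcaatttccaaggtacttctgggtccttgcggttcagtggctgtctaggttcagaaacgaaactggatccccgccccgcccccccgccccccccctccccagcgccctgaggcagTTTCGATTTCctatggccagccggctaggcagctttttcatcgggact
Ifih1: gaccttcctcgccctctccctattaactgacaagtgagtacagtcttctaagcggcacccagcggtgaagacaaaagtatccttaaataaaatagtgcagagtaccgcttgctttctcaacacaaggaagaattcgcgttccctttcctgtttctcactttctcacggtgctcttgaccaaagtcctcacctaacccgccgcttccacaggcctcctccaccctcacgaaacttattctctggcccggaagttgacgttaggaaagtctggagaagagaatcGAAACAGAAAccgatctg
Mavs: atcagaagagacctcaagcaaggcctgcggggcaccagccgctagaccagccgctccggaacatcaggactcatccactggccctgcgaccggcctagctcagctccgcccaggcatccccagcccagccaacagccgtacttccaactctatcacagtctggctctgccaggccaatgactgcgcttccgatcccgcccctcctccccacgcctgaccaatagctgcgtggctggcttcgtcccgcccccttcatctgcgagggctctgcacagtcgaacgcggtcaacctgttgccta
The motif starts at base 19 after the gene start in Eif2ak2 and at base 33 in Ifih1, both on the gene's own strand, and at base 3 on the opposite strand in Ddx58. It was present in 1131 of 32851 mouse windows of the same length (3.44%). RefSeq windows were at hand for 7 of the genes, 9 windows in all, of which 3 held the motif, and the windows of Mavs, Adar, Tlr3 and Aim2 did not. Only exact matches were counted. An Adar window holds gaaagtgaac and the Tlr3 window tttcactttg, each differing from a match only at its last base. Near matches were not searched for in the other windows. Zbp1 and Dhx58 had no window. CG dinucleotides, the sites that DNMT1 keeps methylated, numbered 17 in the Eif2ak2 window, 15 in Ddx58, 14 in Ifih1 and 19 in Mavs, against a median of 7 over all windows. As many or more were found in 28.1% to 36.3% of all windows, and among the other windows of these genes the count ran from 5 (Aim2) to 34 (1 of the 3 Adar windows). Their methylation was not measured in the files used here.

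Before the results, the labels were checked on Dnmt1 itself, which has 1 probe. Its intensity was 71.2 to 118 on the control arrays and 52.3 to 105 on the knockout arrays of week 4, 88.3 to 104 and 70.4 to 87.3 at week 8, and 67.6 to 100.3 and 37.9 to 69.4 at week 20. The knockout means were lower but passed the threshold at no week, with differences of -0.25 ± 0.19 (SE), -0.30 ± 0.19 and -0.58 ± 0.19 on the log2(intensity + 16) scale and adjusted p of 0.364, 0.200 and 0.0737 (limma, n = 4 arrays per group). Its position on the gene is not known here, and a probe outside the deleted exons checks nothing. All 8 hepatocyte markers on the array (Alb, Ttr and Apoa1 among them) were above background on all 24 arrays. Control week 20 replicates 3 and 4 stood apart, with a mean log2 level of 10 acute phase genes of 13.8 and 13.9 against 9.86 and 9.98 on the other 2 arrays of their group. The week 20 results of the sensor genes are therefore given with and without both, as are those of other genes and lists where the call changed. Without both, Dnmt1 stood at -0.45 at week 20 (adjusted p = 0.358).

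Of the 6 measured sensor genes, 4 were higher in the knockout at weeks 4 and 8 (Dhx58, Eif2ak2, Ddx58 and Adar), Mavs was lower at both weeks, Zbp1 was lower at week 8, and none passed the threshold at week 20. That is 5 of 6 past the threshold of an adjusted p of 0.05 at week 4, where 27.2% of all 10733 genes passed (14.8% higher and 12.4% lower). At week 8 it is 6 of 6, where 48.9% of all genes passed (24.9% higher and 24.0% lower). At week 20 it is 0 of 6 by limma, with 1 at an unadjusted p under 0.05, where 5.66% of all genes passed (3.44% higher and 2.23% lower). The median difference of the 6 was 0.71 at week 4, 0.75 at week 8 and -0.30 at week 20, beside -0.012, -0.067 and 0.0006 over all genes. The count at week 4 was 3 of 6 without knockout week 4 replicate 3 or 5. The count over all genes at week 20, 608, fell to 284 without control week 20 replicate 3, 306 without replicate 4, 331 without knockout week 20 replicate 2 and 370 without replicate 3. Differences throughout subtract the control from the knockout on the log2(intensity + 16) scale, ± SE with n = 4 arrays per group, a scale that understates changes of dim probes. In whole liver, more cells of a type and more RNA per cell cannot be told apart.

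**Figure D1:**
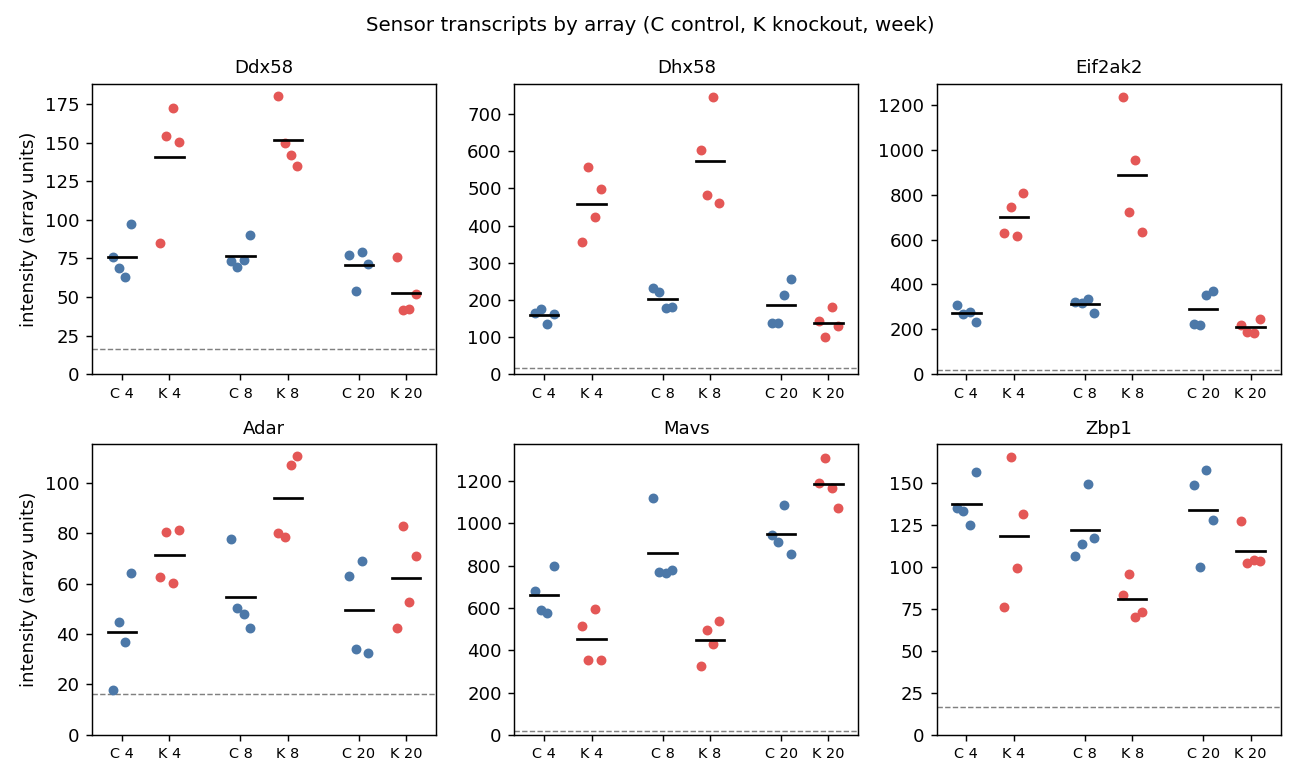
Intensity (array units, linear axes) of the 6 measured genes on each of the 24 arrays, control (C, blue) and knockout (K, red) at weeks 4, 8 and 20, with a bar at the mean of 4 arrays and a dashed line at the background threshold of 16.3. Dhx58 and Eif2ak2 lie apart between genotypes at weeks 4 and 8 and overlap at week 20, and Mavs runs the other way.

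Dhx58, which encodes LGP2, was higher in the knockout at weeks 4 and 8 by about as much as Eif2ak2. At week 4 its intensity was 164, 175, 134 and 163 on the control arrays and 357, 557, 424 and 498 on the knockout arrays. At week 8 the controls read 231, 222, 177 and 181 and the knockouts 604, 481, 746 and 460. At week 20 the controls read 139, 138, 214 and 256 and the knockouts 143, 100.4, 180 and 129. Every knockout array lay above every control array at weeks 4 and 8, and the groups overlapped at week 20. The difference was 1.43 ± 0.20 at week 4 (adjusted p = 5.33e-06), a 2.69-fold higher value of intensity + 16, and 1.41 ± 0.20 at week 8 (adjusted p = 1.75e-06). At week 20 it was -0.37 ± 0.20 (adjusted p = 0.279).

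Ddx58, which encodes RIG-I, the sensor of short RNA duplexes with a 5′ triphosphate, followed with smaller differences. Its intensity at week 4 was 76.1, 68.7, 62.6 and 97.3 on the control arrays and 84.8, 155, 172 and 151 on the knockout arrays. The control arrays of week 8 read 73.3, 69.4, 73.6 and 90.01 and the knockout arrays 180, 150, 142 and 135. The week 20 readings were 77.4, 54.01, 79.3 and 71.6 (controls) and 76.1, 41.2, 42.0 and 51.8 (knockouts). One knockout array of week 4, replicate 1, lay within the control range, week 8 did not overlap, and week 20 overlapped. The Ddx58 difference was 0.74 ± 0.19 (adjusted p = 0.00467) at week 4 and 0.85 ± 0.19 (adjusted p = 5.95e-04) at week 8. In week 20 it stood at -0.35 ± 0.19 (adjusted p = 0.293).

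Ifih1 and Tlr3, the genes of the long-duplex sensor MDA5 and of the endosomal sensor, gave no signal to compare. Ifih1 was above background on 1 of 24 arrays, a knockout array of week 8 at 16.4, and its other values ran from -6.40 to 13.7. Tlr3 was above background on 2 arrays, a control array of week 8 at 19.3 and a knockout array of week 8 at 16.4. In a fit without the background filter neither passed the threshold at any week, with Ifih1 at 0.15, 0.32 and 0.078 (adjusted p = 0.805, 0.397 and 0.933 at weeks 4, 8 and 20). Tlr3 stood at 0.31, 0.047 and 0.14 in that fit (adjusted p = 0.488, 0.955 and 0.840). A reading at background gives only an upper bound on the level, so for these genes a change below it would not be detected.

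Eif2ak2 encodes PKR, the kinase that phosphorylates the translation factor eIF2 alpha on binding double-stranded RNA. At week 4 its intensity was 308, 268, 279 and 234 on the control arrays and 631, 747, 615 and 808 on the knockout arrays. The readings of week 8 were 323, 318, 333 and 271 for controls and 1234, 725, 954 and 636 for knockouts. Those of week 20 were 223, 220.3, 355 and 372 for controls and 217, 189, 182 and 244 for knockouts. The knockouts lay above all controls at weeks 4 and 8, and at week 20 the groups overlapped, with control replicates 3 and 4 the highest. The Eif2ak2 difference was 1.31 ± 0.18 (adjusted p = 6.58e-06) at week 4, and 1.42 ± 0.18 (adjusted p = 5.63e-07) at week 8. In week 20 it stood at -0.43 ± 0.18 (adjusted p = 0.167, unadjusted p = 0.0263 in limma). Without control week 20 replicates 3 and 4, the week 20 difference was -0.093 for Eif2ak2 (adjusted p = 0.863) and -0.023 for Dhx58 (adjusted p = 0.9753).

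Adar, the editing enzyme that marks cellular RNA duplexes, was weakly expressed on the probe used. Its intensity at week 4 was 17.9, 44.7, 36.8 and 64.3 on the control arrays and 62.6, 80.6, 60.3 and 81.2 on the knockout arrays. Week 8 controls gave 77.5, 50.4, 47.8 and 42.5 and knockouts 80.1, 78.3, 107 and 111. Week 20 gave 63.0, 34.1, 69.0 and 32.5 for controls and 42.3, 82.8, 52.7 and 71.04 for knockouts. The groups overlapped at week 4 by 1 control array, were just apart at week 8 and overlapped at week 20. The Adar difference was 0.67 ± 0.24 (adjusted p = 0.0391) in week 4, 0.65 ± 0.24 (adjusted p = 0.0279) in week 8 and 0.27 ± 0.24 (adjusted p = 0.558) in week 20. These calls are fragile: the week 4 call was lost without control week 4 replicate 1 (0.45, adjusted p = 0.183), and leaving out any of 4 arrays at week 4 or any of 5 at week 8 ended it.

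The 3 probes of Adar disagreed. Probe ILMN_3021272 read 17.0 to 31.6 on the control arrays and 49.4 to 70.4 on the knockout arrays of week 4, 25.3 to 36.6 and 69.97 to 125 at week 8, and 19.1 to 52.6 and 24.2 to 38.6 at week 20. Its genotypes were apart at weeks 4 and 8, with differences of 0.93 ± 0.20 (adjusted p = 0.00131) and 1.36 ± 0.20 (adjusted p = 5.09e-06), and not at week 20 (-0.15 ± 0.20, adjusted p = 0.731). On this probe the difference at week 20 was smaller than at week 8 by 1.51 ± 0.28 (adjusted p = 2.98e-04). Probe ILMN_2704372 passed the threshold at no week, with differences of 0.48, -0.27 and 0.066 (adjusted p = 0.124, 0.340 and 0.907). Which Adar transcripts each probe reads was not tested.

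**Figure D2:**
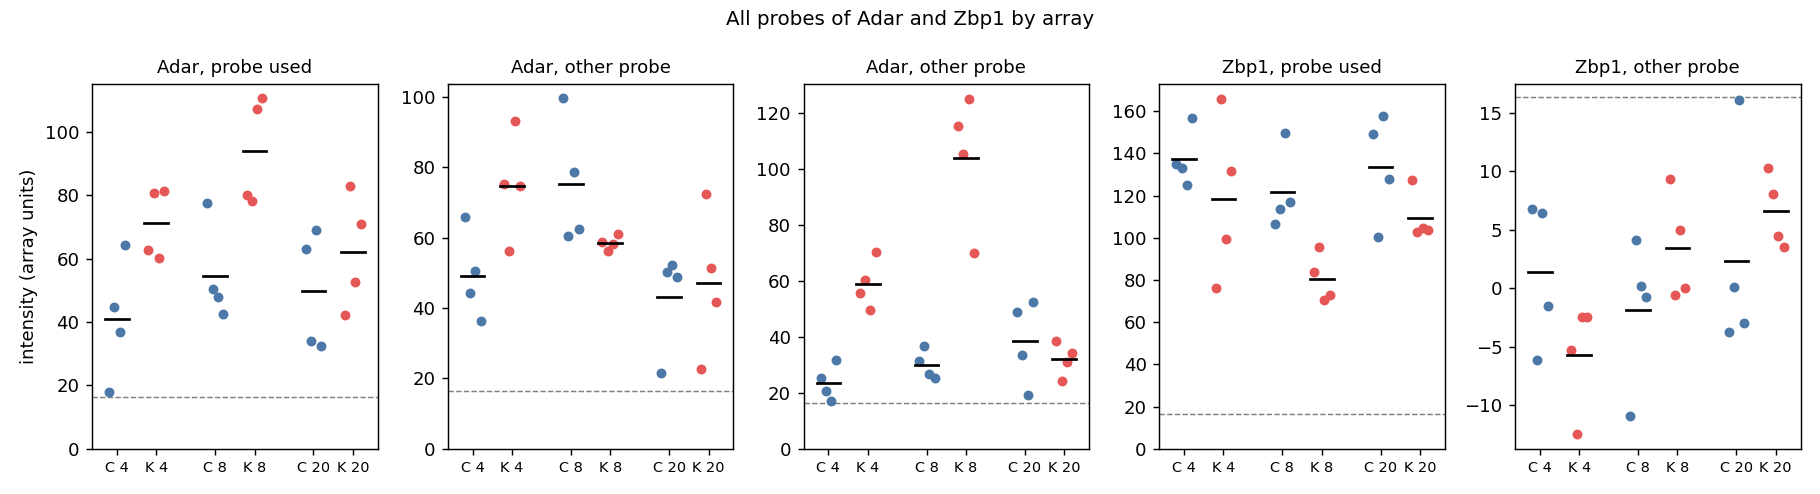
Intensity (array units, linear axes that differ between panels) on each array for the 3 probes of Adar and the 2 of Zbp1, control (C, blue) and knockout (K, red) by week, with bars at the mean of 4 arrays and the background threshold dashed. The third panel, probe ILMN_3021272, has Adar genotypes apart at weeks 4 and 8, the second (ILMN_2704372) has not, and the last panel, the other Zbp1 probe, lies below background throughout.

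Mavs, the adaptor that relays RIG-I and MDA5 signals, moved in the opposite direction to the RNA sensors. At week 4 its intensity was 678, 591, 576 and 800.0 on the control arrays and 513, 354, 593 and 356 on the knockout arrays. By week 8 the controls stood at 1118, 772, 765 and 777 and the knockouts at 324, 498, 431 and 537. The arrays of week 20 showed 943, 913, 1086 and 853 for controls and 1189, 1309, 1168 and 1075 for knockouts. The knockouts lay below all controls at week 8, while at weeks 4 and 20 the groups overlapped by 1 knockout array each. The Mavs difference was -0.55 ± 0.17 (adjusted p = 0.0166) in week 4 and -0.92 ± 0.17 (adjusted p = 7.74e-05) in week 8, against 0.32 ± 0.17 (adjusted p = 0.284) in week 20. The week 4 call was lost without control replicate 5 (adjusted p = 0.0666), knockout replicate 3 (0.0761) or knockout replicate 5 (0.0750).

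Zbp1 encodes a sensor of left-handed Z-form nucleic acid that can start necroptosis, and Aim2 a sensor of cytosolic DNA that builds an inflammasome. Zbp1 read 135, 133, 125 and 157 on the control arrays and 76.3, 166, 99.5 and 132 on the knockout arrays of week 4. At week 8 it read 107, 114, 150 and 117 for controls and 83.6, 95.8, 70.5 and 72.9 for knockouts. At week 20 it read 149, 100.2, 158 and 128 for controls and 127, 103, 104 and 104 for knockouts. The groups were apart at week 8 only, with the knockouts lower. The Zbp1 difference was -0.23 ± 0.18 (adjusted p = 0.349) in week 4, -0.51 ± 0.18 (adjusted p = 0.0196) in week 8 and -0.24 ± 0.18 (adjusted p = 0.456) in week 20. The week 8 call was lost without control week 8 replicate 4 (adjusted p = 0.0754) or knockout week 8 replicate 3 (0.0549). A second Zbp1 probe never exceeded 16.1 and was below background on all 24 arrays. Aim2 had no array above background and a highest reading of 7.27.

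**Figure D3:**
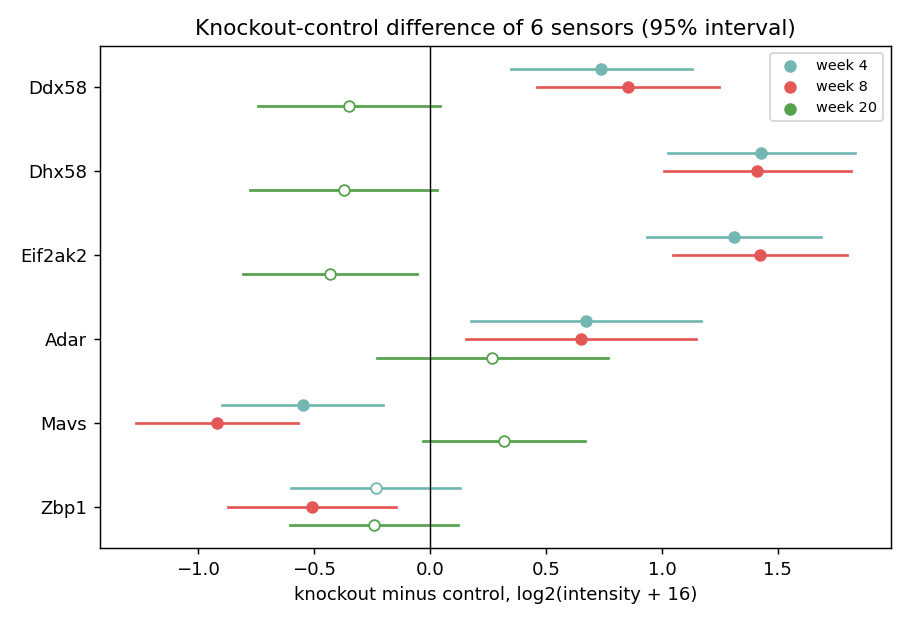
Knockout minus control difference of the 6 measured genes, on the log2(intensity + 16) scale, at weeks 4, 8 and 20, with 95% intervals from the limma fit over 24 arrays. Filled points passed an adjusted p of 0.05 and open points did not. The week 4 and week 8 points have the same sign for each gene, with Mavs and Zbp1 further down at week 8. The Zbp1 point is open at week 4 and filled at week 8, and the points of week 20 are all open.

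The differences of 4 genes changed between week 8 and week 20, tested as the change of the knockout-control difference itself. The difference fell by 1.20 ± 0.27 for Ddx58 (adjusted p = 0.00134). It fell by 1.78 ± 0.28 for Dhx58 (adjusted p = 2.69e-05) and fell by 1.85 ± 0.26 for Eif2ak2 (adjusted p = 7.14e-06). That of Mavs rose by 1.24 ± 0.24 (adjusted p = 3.35e-04). These 4 of 6 stand beside 31.1% of all genes (14.2% higher and 16.9% lower). Adar (-0.38 ± 0.34, adjusted p = 0.429) and Zbp1 (0.27 ± 0.25, adjusted p = 0.453) did not pass. The same 4 genes passed for week 20 against week 4, where 13.3% of all genes did (6.08% higher and 7.23% lower), at -1.09 for Ddx58, -1.80 for Dhx58, -1.74 for Eif2ak2 and 0.87 for Mavs. Between weeks 4 and 8 none of the 6 passed in limma, and none had an unadjusted p under 0.05, where 8.94% of all genes passed. Without control week 20 replicates 3 and 4 the same calls held, with Ddx58 and Mavs against week 4 close to the threshold (adjusted p = 0.0491 and 0.0449). The week 20 differences themselves then stood at -0.26 for Ddx58, 0.34 for Mavs, 0.28 for Adar and -0.15 for Zbp1 (adjusted p = 0.627, 0.426, 0.669 and 0.795).

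Within one genotype, the changes with week past the threshold were mostly in the knockouts. From week 8 to 20 the knockout level changed by -1.31 for Ddx58, -1.93 for Dhx58, -1.97 for Eif2ak2 and 1.39 for Mavs, each ± 0.17 to 0.20 (SE) and past the threshold, beside 43.0% of all genes (20.8% higher and 22.2% lower). In controls the only such change among the 6 genes, over 3 comparisons of weeks, was a higher Mavs at week 20 than at week 4 (0.52 ± 0.17, adjusted p = 0.0467), where 11.8% of all genes passed. From week 4 to 8 and from week 8 to 20, 7.98% and 0.028% of all genes did in controls. These comparisons share their samples with the knockout-control differences.

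The RNA of intracisternal A particles (Iap), an endogenous retrovirus restrained by DNA methylation, is given here for the same arrays. Its probe was above background on all 24 arrays, controls included, and which copies the probe reads is not known here. Its intensity was 1618 to 2258 on the control arrays and 28346 to 30037 on the knockout arrays of week 4, 985 to 1451 and 30845 to 34211.5 at week 8, and 847 to 2065 and 5856 to 14431 at week 20. The genotypes were apart at every week, week 20 included, where the sensors overlapped. The difference was 3.99 ± 0.23, 4.83 ± 0.23 and 2.62 ± 0.23 (adjusted p = 2.48e-12, 2.77e-14 and 1.11e-07). It fell by 2.21 ± 0.33 from week 8 to week 20 (adjusted p = 1.84e-05). Without control week 20 replicates 3 and 4 the week 20 difference was 2.96 (adjusted p = 1.61e-07). The probe ranked between 6 and 29 from the brightest on the knockout arrays of weeks 4 and 8, near the top of the range (38683 on each array), so the differences of those weeks, and the fall after week 8, may be understated.

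**Figure D4:**
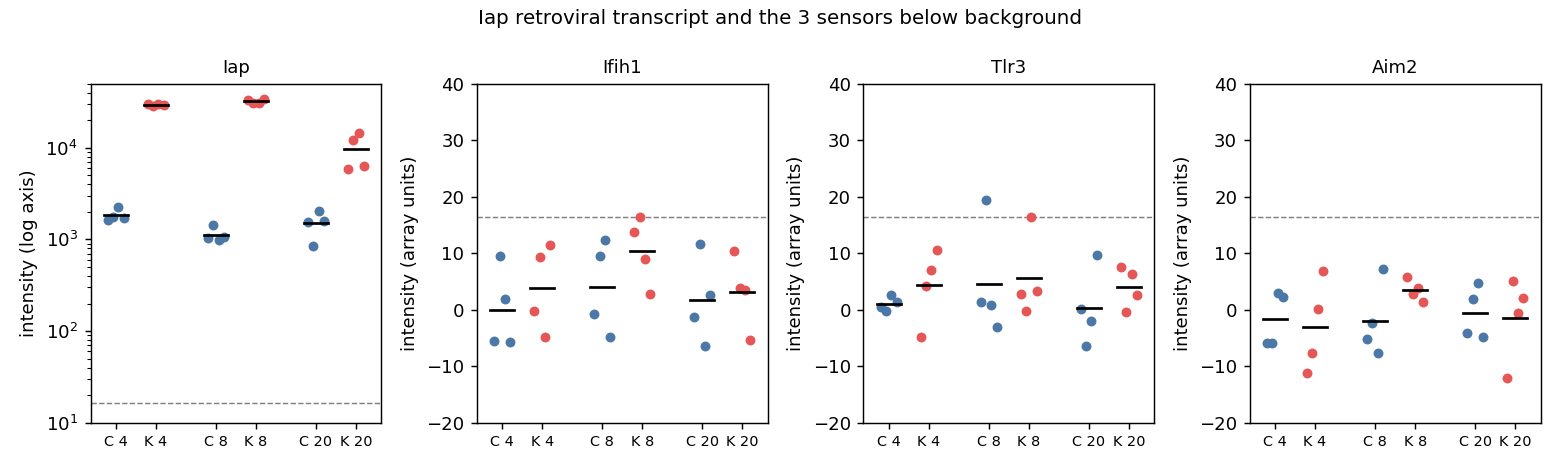
Intensity on each array of the retroviral Iap transcript (left, log axis) and of the 3 sensor genes at background (linear axes), control (C, blue) and knockout (K, red) by week, with bars at the mean of 4 arrays. Iap genotypes lie apart at all 3 weeks, and Ifih1, Tlr3 and Aim2 scatter around 0 below the dashed threshold of 16.3, with 3 readings at or above it.

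The other sensors formed a mixed group. Of 15 measured above background on enough arrays, 4 rose and 1 fell at week 4, 5 rose and 1 fell at week 8, and 1 fell at week 20, with medians of 0.27, 0.14 and -0.098. In either direction 5 of 15 passed at week 4, beside 27.2% of all genes, and 6 of 15 at week 8, a share below the 48.9% of all genes. Without control week 20 replicates 3 and 4 none passed at week 20 in limma (3 at an unadjusted p under 0.05). The endosomal receptors of single-stranded RNA in mouse, Tlr7, Tlr8 and Tlr13, rose at week 8. Tlr13 differed by 2.86 ± 0.29 (adjusted p = 1.04e-08) and Tlr7 by 2.49 ± 0.25 (adjusted p = 1.28e-08). Tlr8, below background on every control array of week 8, was at least 2.30-fold higher (adjusted p = 5.14e-06). Ifit3, of a family that binds viral RNA ends, differed by 2.53 ± 0.24 (adjusted p = 5.39e-09). Cgas, the cytosolic DNA sensor that signals through STING, was at -0.11, -0.21 and -0.39 at weeks 4, 8 and 20 (adjusted p = 0.795, 0.524 and 0.396) and was chosen here after its values were seen.

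Downstream of the sensors, the cofactor and adaptor list had 8 of 16 genes higher and 1 lower at week 4 and 9 higher and 3 lower at week 8, and 1 higher at week 20, with medians of 0.38, 0.48 and -0.034. Mlkl, the executioner of necroptosis downstream of ZBP1, rose by 1.62 ± 0.20 and 2.02 ± 0.20 (adjusted p = 1.59e-06 and 1.13e-08). Unc93b1, which carries the nucleic acid receptors to endosomes, rose by 1.31 ± 0.16 at week 8 (adjusted p = 2.52e-07). Casp1, the inflammasome protease, was the gene still higher at week 20 (1.72 ± 0.24, adjusted p = 8.56e-05). Of all genes, 14.8% were higher at week 4 and 24.9% at week 8. Of 16 kinases and factors, 7 rose and 1 fell at week 4, 8 rose and 2 fell at week 8, and none passed at week 20 in limma, with 3 at an unadjusted p under 0.05; the medians were 0.35, 0.33 and 0.051. Irf7, which drives the interferon alpha genes, rose by 2.21 ± 0.23 and 2.003 ± 0.23 (adjusted p = 7.99e-08 and 9.37e-08). Tbk1 rose by 0.70 ± 0.11 and 0.35 ± 0.11 (adjusted p = 3.90e-05 and 0.0122), whereas Irf3 stood at -0.15 and -0.10 (adjusted p = 0.380 and 0.511). Tbk1 and Irf3 were chosen after their values were seen.

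**Figure D5:**
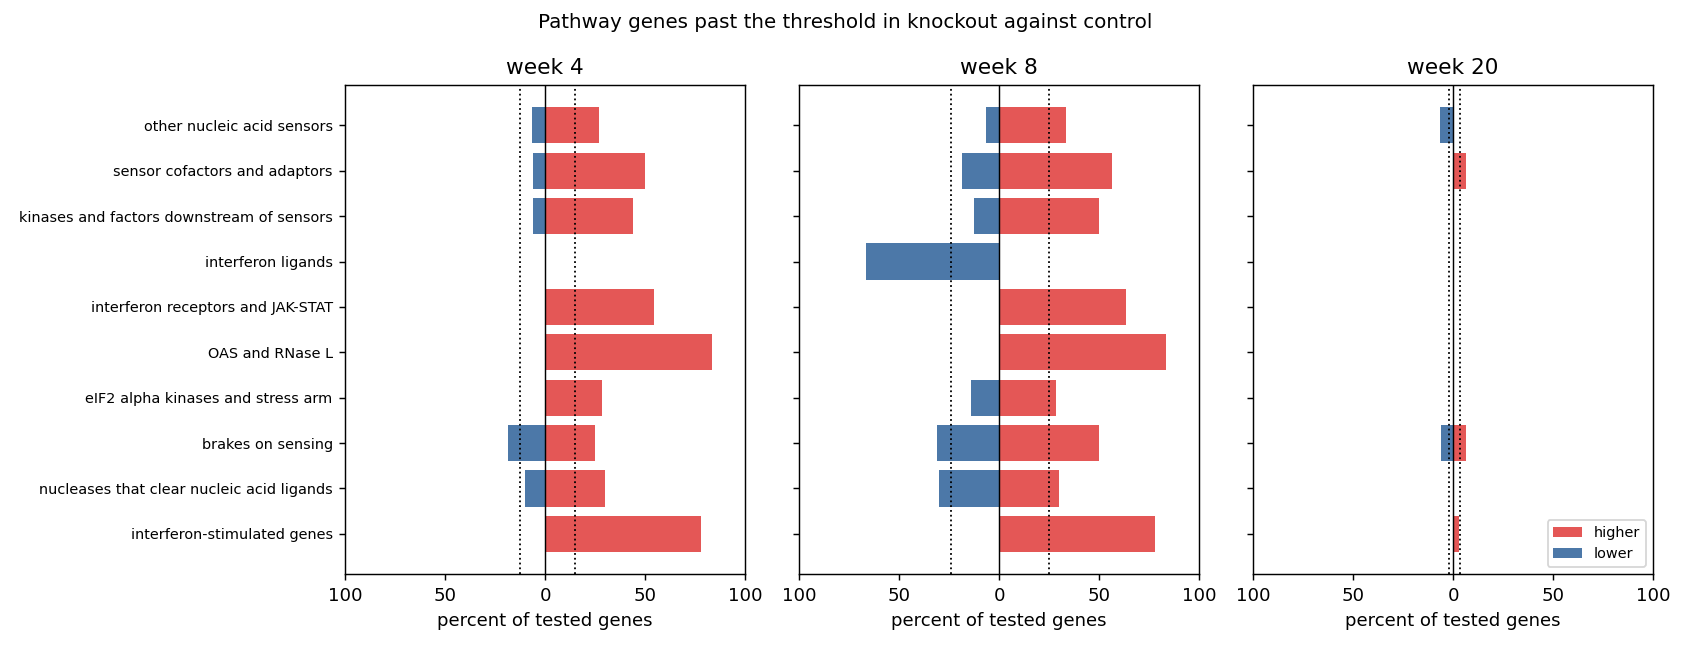
Share of the measured genes of each pathway list that passed an adjusted p of 0.05 in the knockout-control comparison at weeks 4, 8 and 20, higher in red to the right and lower in blue to the left (axes in percent), with dotted lines at the share of all 10733 genes. At weeks 4 and 8 the OAS and interferon-stimulated lists have 5 of 6 and 25 of 32 genes higher, and at week 20 they have 0 and 1.

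The interferon genes themselves were hardly measured. Of 17 interferon ligands on the array 3 were tested, and Ifnb1, the first interferon that sensor signalling induces, never exceeded 7.36, nor Ifng 5.67. None of the 3 tested (Ifna1, Ifna6 and Ifne) was higher in the knockout at any week. Ifna6 was lower at week 8 (-0.97 ± 0.17, adjusted p = 5.75e-05), as was Ifna1 (-0.70 ± 0.24, adjusted p = 0.0197), and Ifne passed at no week. In week 8, 24.0% of all genes were lower. At weeks 4 and 20 none passed in limma or at an unadjusted p under 0.05. The interferon alpha genes are near-identical copies, so a probe may read more than 1 of them. The summed intensity of the 17 ligands was 162 to 216 on the control arrays and 72.5 to 132 on the knockout arrays of week 8. The sums overlapped at week 4 (162 to 183 and 98.2 to 184) and at week 20 (151 to 197 and 137 to 213). Of the 17, 14 were below background, and the brightest were Ifna6 and Ifna1, with highest readings of 143 and 42.8. The sum is therefore not a level of all 17.

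Among the receptors and the JAK-STAT pathway that reads interferon, 6 of 11 measured genes rose at week 4 and 7 at week 8, none fell, and none passed at week 20, with 1 at an unadjusted p under 0.05. Beside these stand 14.8% and 24.9% of all genes higher at weeks 4 and 8. The median of the list was 0.52, 0.50 and -0.013. Ifngr1, the ligand-binding chain for interferon gamma, rose by 1.36 ± 0.15 at week 8 (adjusted p = 5.58e-08). Ifnlr1, the interferon lambda receptor, was at background on all control arrays of week 8 and at least 3.96-fold higher in the knockout (adjusted p = 8.81e-07). For type I interferon, Ifnar1 lay below background on all 24 arrays and Ifnar2 stood at -0.35, 0.53 and 0.17 (adjusted p = 0.260, 0.0555 and 0.712). Of the other receptor chains, Il10rb rose at weeks 4 and 8 (0.79 and 1.11, adjusted p = 0.0179 and 5.87e-04) and Ifngr2 at week 8 (0.50, adjusted p = 0.0151).

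The OAS family makes an oligoadenylate second messenger when it meets double-stranded RNA. Of 13 genes 6 were measured, and 5 of them rose at week 4 and 5 at week 8, while none passed at week 20 (2 at an unadjusted p under 0.05). The shares of all genes higher were 14.8% at week 4 and 24.9% at week 8. Oas1g differed by 2.83 ± 0.22 at week 4, 4.12 ± 0.22 at week 8 and 0.42 ± 0.22 at week 20 (adjusted p = 7.28e-10, 2.91e-13 and 0.287). Without control week 20 replicates 3 and 4 its week 20 difference was 0.96 ± 0.20 and passed (adjusted p = 0.0102), the 1 call gained in this list. The list's summed intensity at week 20 was 349 to 559 on all 4 control arrays and 485 to 680 on the knockout arrays. On the 2 control arrays left it was 349 to 358, apart from the knockouts. The sum is weighted to the brightest genes, Oas1g among them. Oasl2 rose by 3.20 ± 0.19 and Oas2 by 3.18 ± 0.25 at week 8 (adjusted p = 1.39e-12 and 2.44e-10). The Oas1 genes are close copies of each other, and their probes may cross-react.

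Of 32 measured interferon-stimulated genes outside the sensor set, 25 were higher at week 4 and 25 at week 8 and none lower, with medians of 0.94 and 1.26. Over all genes 14.8% and 24.9% were higher at those weeks. Rsad2, which makes an antiviral nucleotide, rose by 2.13 ± 0.29 and 3.56 ± 0.29 (adjusted p = 4.22e-06 and 2.94e-10). At week 20 the 1 gene past the threshold was Ifi27 (1.04 ± 0.16, adjusted p = 3.80e-04), and the median was -0.038. Without control week 20 replicates 3 and 4 it was again the 1 gene past the threshold (1.41, adjusted p = 8.06e-06), and the median was 0.098. The list's summed intensity at week 20 was 24272 to 40195 on all 4 control arrays and 33738 to 40546.5 on the knockout arrays. On the 2 control arrays left it was 24272 to 27993, apart from the knockouts. The sum is weighted to the brightest genes, such as Ifitm3 and Ifi27, with highest readings of 22761 and 21643. The list's mean log2 level at week 20 overlapped, at 7.48 to 7.95 on all 4 control arrays and 7.52 to 8.03 on the knockout arrays. That mean was not computed for the 2 control arrays alone. For 21 of the 32 the knockout-control difference was smaller at week 20 than at week 8, and it was larger for none, beside 16.9% and 14.2% of all genes. The list overlaps the other lists, with Oasl2, Oas2 and Irf7 among the shared genes, and earlier results of these samples were known when it was drawn up.

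The translational control list holds eIF2 alpha kinases other than PKR, Eif2ak1 among those measured, and stress genes below such kinases. Of its 7 measured genes 2 rose at weeks 4 and 8, and 1 fell at week 8. Which kinase, if any, lies behind a change was not tested. The shares in either direction, 28.6% and 42.9%, lay close to or below the 27.2% and 48.9% of all genes. None passed at week 20 in limma (4 at an unadjusted p under 0.05), and 1, Trib3, was lower without control week 20 replicates 3 and 4. Atf3, a stress-induced transcription factor, was at background on all control arrays of weeks 4 and 8 and at least 5.11-fold and 6.35-fold higher in the knockout (adjusted p = 1.91e-07 and 5.94e-09). Ddit3, which encodes CHOP, rose by 1.76 ± 0.23 and 1.68 ± 0.23 (adjusted p = 2.83e-06 and 1.45e-06). Atf4, whose translation eIF2 alpha phosphorylation favours, stood at -0.39, -0.35 and -0.43 (adjusted p = 0.0706, 0.0665 and 0.109), and at -0.072 in week 20 without those 2 arrays (adjusted p = 0.864). Ppp1r15b, a subunit of the phosphatase that restores eIF2 alpha, fell at week 8 (-0.79 ± 0.20, adjusted p = 0.00166). The array reads RNA and not the phosphorylation of PKR or eIF2 alpha.

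Macrophage markers were higher at weeks 4 and 8, as 4 of the sensor genes were. Of 17 measured, 15 were higher at week 4, 16 at week 8 and 2 at week 20 (Gpnmb and Cx3cr1, or Gpnmb and Trem2 without control week 20 replicates 3 and 4). Among all genes 14.8%, 24.9% and 3.44% were higher at the 3 weeks. The summed intensity of the list was 8482 to 11048 on control and 18925 to 27264 on knockout arrays at week 4. It was 6878 to 8848 and 25355 to 49827 at week 8, and 4907 to 11971 and 5793 to 12169 at week 20. The difference in the summed level was thus present in the weeks in which Dhx58 and Eif2ak2 were higher, and the ranges overlapped at week 20, also with the other 2 control arrays alone (4907 to 7079). With those 2 control arrays alone the list's median difference at week 20 was 0.51, against 0.034 with all 4. Of the 17 genes, 8 then had an unadjusted p under 0.05 in limma. Of 7 measured dendritic cell markers 3, 4 and 1 were higher at the 3 weeks, Ly6d at each and alone at week 20. The others were Siglech and Tcf4 at weeks 4 and 8 and Batf3 at week 8. Flt3, Itgax and Clec9a never exceeded background. The list's sum was 1304 to 1884 on control and 7725 to 12154 on knockout arrays of week 8. Ly6d had a mean intensity of 7100 on those knockout arrays and 6.92 in their controls, so a large part of the knockout sum was this 1 gene.

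T and NK cell, B cell and neutrophil markers had more genes higher at week 8 than at week 4. So did all genes, of which 24.9% were higher at week 8, 14.8% at week 4 and 3.44% at week 20. Of 10 measured T and NK cell markers 1, 6 and 1 were higher at weeks 4, 8 and 20 (0 at week 20 without control week 20 replicates 3 and 4), and Cd4 and Cd8a were below background on all arrays. Of 3 measured B cell markers 1, 3 and 0 were higher, with Ms4a1 above background on 0 arrays. All 7 measured neutrophil markers were higher at week 8 and none passed at week 4 or 20, with sums of 26.9 to 111 on control and 879 to 1992 on knockout arrays of week 8. Of 12 endothelial markers 1 rose and 1 fell at week 4, 3 rose and 3 fell at week 8, and none passed at week 20, so 2 of 12 and 6 of 12 passed at weeks 4 and 8 beside 27.2% and 48.9% of all genes. Hepatocyte markers fell for 3, 5 and 1 of 8, Alb at each week, beside 12.4%, 24.0% and 2.23% of all genes. The Alb probe never exceeded 1805, whereas the highest readings of Ttr and Apoa1 were 32969 and 31751. How well the Alb probe reads its transcript was not tested. The list sums overlapped between genotypes at each week. The mean log2 level of the same 8 genes, which the brightest do not dominate, did not overlap at week 8 (11.73 to 11.89 on control and 10.72 to 11.20 on knockout arrays). The part of these cell types in the sensor differences was not tested.

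Across the 24 arrays, the highest Pearson correlation among the 6 genes was that of Dhx58 and Eif2ak2 at 0.96, and it was 0.62 once group means were removed. Within groups Ddx58 and Zbp1 had the highest value, 0.66, against -0.20 across all arrays. Mavs ran against Eif2ak2 at -0.87, and at -0.51 within groups. Among all other tested genes, the one most like Eif2ak2 was H3c14 (0.96), the one most like Dhx58 was Irf7 (0.94) and the one most like Ddx58 was Mta3 (0.93). Tfr2 was nearest to Mavs (0.94), Ptpro to Adar (0.80) and Zhx3 to Zbp1 (0.75). Within groups these 6 correlations were 0.83, 0.47, 0.60, 0.63, 0.59 and 0.48 in the same order. The arrays share 6 groups, so the values across all arrays largely describe the difference between groups.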

How the data were processed

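Total RNA of 24 mouse liver samples was labelled with biotin after amplification and read on an Illumina mouse array, per the labels' protocols. The values used are the deposited linear intensity of 25697 probes, made in GenomeStudio 2011 per the submitters' processing notes. The 48 columns of a separate non-normalized table match no sample by name and were not used, apart from its gene symbols, which were updated through a RefSeq table (GRCm38.p6).

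Values were floored at 0 and taken as log2(intensity + 16). The noise SD, 7.03, was computed from the negative values as their root mean square, and background ends at that SD times 2.33. Probes above it on at least 4 arrays were kept, with the probe of highest mean per gene. The model, 6 group means over 24 arrays, came from limma 3.58.1 under R 4.3.3 (eBayes with trend, two-sided, adjusted by Benjamini and Hochberg over 10733 genes), after a test on simulated data. Array number limits the precision. A fold of at least N sets the brighter group against the background threshold. Named were all members, in each pathway list the 4 measured genes of lowest p at week 8, every measured interferon ligand and receptor, the reference genes, and the gene most like each member. Not every gene so named is printed. The members and lists were chosen with earlier results of these data known, and the acute phase list was added after the values were seen. The replicate numbers are not stated to pair arrays, so no block was used in the main fit. Alternatives changed the offset, the background filter, the rule for several probes, the block and the arrays used.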

Additional observations from a re-analysis of the deposited data

Results flagged for a closer look

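In 3 of 48 groups of 4 arrays 1 array lay far from the others, where chance flags about 1 group in 20. Zbp1 was 7.16 on knockout week 20 replicate 1 (log2 of intensity + 16), against 6.89 to 6.91 on the other arrays of its group. Mavs was 10.15 on control week 8 replicate 2, against 9.61 to 9.63. Iap was 10.52 on control week 8 replicate 3, against 9.97 to 10.06.

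Of 18 tests of whether a sensor gene's knockout-control difference changed between weeks, 8 passed, none of them for week 8 against week 4. Of all genes, 8.94% passed for week 8 against 4, 31.1% for week 20 against 8 and 13.3% for week 20 against 4. The calls below are of the same 4 genes in 2 comparisons that share the week 20 arrays. Relative to week 8, the difference at week 20 changed by -1.20 for Ddx58, -1.78 for Dhx58, -1.85 for Eif2ak2 and 1.24 for Mavs. Relative to week 4 it changed by -1.09 for Ddx58, -1.80 for Dhx58, -1.74 for Eif2ak2 and 0.87 for Mavs.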

How the results depend on the processing

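Other offsets, filters, probe rules and array sets left 734 single-gene values in the same direction and on the same side of the threshold; 20 calls were lost, 2 were gained and 0 reversed. The lost calls were of Adar at weeks 4 and 8, Zbp1 at week 8 and Mavs at week 4; the cause was not tested. Adar at weeks 4 and 8 had adjusted p of 0.0793 and 0.0560 with no filter on dim probes. Leaving out 1 array gave 3 to 5 members past the threshold at week 4, 4 to 6 at week 8 and 0 at week 20. Averaging all probes of a gene called the change of the Adar difference at week 20 against week 8 (-0.52, adjusted p = 0.0408) and week 4 (-0.63, adjusted p = 0.0292). Over all genes the week 20 count of 608 was 390 with no filter, 131 with only the 8 arrays of the week, 306 without control week 20 replicates 3 and 4, and 284 to 718 leaving out 1 array. The labels do not say that replicate numbers pair the arrays. Correlations of same-numbered deviations ran from -0.15 to 0.041, which shows no pairing but cannot exclude it. A replicate block gave 266 genes at week 20 and ended the calls of Adar (adjusted p = 0.0822 and 0.122 at weeks 4 and 8) and Zbp1 at week 8 (0.0618). Chosen after seeing the data, the week 20 counts of the pathway and marker lists without control week 20 replicates 3 and 4 went from 1 to 0 for the other sensors and for T and NK cell markers, from 2 to 0 for genes that restrain sensing, and from 0 to 1 for the OAS list and the translational control list. The other 12 of these lists kept their count. The acute phase list, by which the 2 arrays were set apart, is not among them. It went from 0 to 5 genes higher, and its median from -0.50 to 1.19. Some week 20 sums that overlapped with all control arrays were apart without those 2. The cofactor and adaptor sum was then 4945 to 5340 on control and 5906 to 6571 on knockout arrays. That of neutrophil markers was 87.4 to 133 and 161 to 479. Such sums are weighted to the brightest genes of a list. The sums of other lists, the macrophage and JAK-STAT lists among them, still overlapped. Signal near background limits what can be said of Ifih1, Tlr3 and Aim2.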

Other observations

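Of 10 measured nucleases that remove nucleic acid before it is sensed, 3 rose and 1 fell at week 4, 3 rose and 3 fell at week 8, and none passed at week 20 in limma or at an unadjusted p under 0.05, with medians of 0.12, 0.076 and -0.069. Of all genes, 14.8% were higher and 12.4% lower at week 4, and 24.9% and 24.0% at week 8, so the week 8 counts lay near those shares. Samhd1, which depletes nucleotides needed by reverse transcription, rose by 0.70 ± 0.16 and 1.49 ± 0.16 (adjusted p = 0.00146 and 2.51e-08). Rnaseh2c, a subunit of the enzyme that cuts RNA paired with DNA, was at -1.73 ± 0.21 and -1.57 ± 0.21 (adjusted p = 9.54e-07 and 1.00e-06). Dnase1l3, a secreted DNase, was at -1.08 ± 0.14 at week 8 (adjusted p = 3.87e-07).

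Of 16 genes that restrain sensing, 4 rose and 3 fell at week 4, 8 rose and 5 fell at week 8, and 1 rose and 1 fell at week 20 (none without control week 20 replicates 3 and 4 in limma, with 3 at an unadjusted p under 0.05), with medians of 0.15, 0.16 and 0.082. In either direction 43.8%, 81.2% and 12.5% passed, beside 27.2%, 48.9% and 5.66% of all genes. Usp18, which blocks interferon receptor signalling, rose by 1.09 ± 0.28 and 2.55 ± 0.28 (adjusted p = 0.00426 and 4.38e-08). Trim30a rose by 1.47 ± 0.28 and 2.03 ± 0.28 at the same weeks (adjusted p = 2.51e-04 and 1.32e-06).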
